A study of Mus musculus with 16 samples.

Results

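C/D box small nucleolar RNAs were followed in the proximal jejunum of mice that received 8.5 or 0 Gy of gamma radiation on a methionine supplemented or a methionine adequate diet. The members were all genes whose symbol, found through the Ensembl gene ID, begins with Snord, and 72 of the 37620 genes in the data met that rule. All mice were 8-week-old males of the inbred strain CBA/J, and the 16 libraries formed 4 groups of 4: supplemented diet with 8.5 Gy, supplemented diet with 0 Gy, adequate diet with 8.5 Gy and adequate diet with 0 Gy. The design gives the supplement as 300% and a period of 6 days, without stating whether that is time on the diet or time after exposure. The labels name no animal behind a library, so the p-values below measure the spread between libraries, which may in part be technical. Because the samples were pieces of whole tissue, fewer cells of a type and less RNA per cell cannot be told apart.

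Small nucleolar RNAs are short RNAs of the nucleolus, the part of the nucleus where ribosomes are assembled. Those of the C/D kind carry a box C motif near the 5′ end and a box D motif near the 3′ end, bind the proteins Fbl, Nop56, Nop58 and Snu13, and pair with a target RNA so that Fbl, a methyltransferase, adds a methyl group to a sugar of that target. Most targets lie in ribosomal RNA, a few C/D RNAs are needed to cut the ribosomal RNA precursor, and some guide methylation of the spliceosomal U6 RNA. In mammals most of them are cut from the introns of host genes, many of which encode ribosomal proteins or are non-coding RNAs that are spliced and then degraded, such as Gas5. The intestinal crypt renews the epithelium continuously, which calls for steady ribosome production. The target roles given here were established mainly in human cells.

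The sequences of 12 members carry the comparisons that follow: a member with a strong rise, copies from 2 small families, the 4 members of the Rpl13a gene, and 2 members with lower levels. They are GENCODE M21 transcripts matched by gene ID, on the strand of the RNA, with GRCm38 positions; capitals mark TGATGA (box C) where it starts within the first 15 bases and CTGA (box D) where it lies within the last 18. Snord87, which guides methylation of large-subunit ribosomal RNA, lies in an intron of the non-coding Snhg6 at chr1:9942463-9942549, minus strand.
Snord87: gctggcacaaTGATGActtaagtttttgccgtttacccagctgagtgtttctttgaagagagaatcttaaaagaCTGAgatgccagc
The 3 copies of Snord1 lie on the plus strand in the non-coding 1810032O08Rik, at chr11:116674598-116674671, chr11:116674148-116674222 and chr11:116672506-116672581.
Snord1a: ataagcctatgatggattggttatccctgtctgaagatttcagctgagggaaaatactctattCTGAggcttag
Snord1b: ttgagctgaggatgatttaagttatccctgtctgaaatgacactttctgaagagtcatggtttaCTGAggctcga
Snord1c: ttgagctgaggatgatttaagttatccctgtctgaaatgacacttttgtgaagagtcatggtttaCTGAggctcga
The Snord49 pair lies on the plus strand in introns of the non-coding 2410006H16Rik, at chr11:62603450-62603521 and chr11:62603079-62603150.
Snord49a: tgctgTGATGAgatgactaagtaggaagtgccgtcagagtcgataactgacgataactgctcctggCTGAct
Snord49b: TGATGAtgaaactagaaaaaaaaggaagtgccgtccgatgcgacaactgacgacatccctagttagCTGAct
Within Rpl13a, a gene of the large ribosomal subunit, 4 members follow each other on the minus strand at chr7:45127382-45127464, chr7:45126864-45126947, chr7:45126601-45126670 and chr7:45126346-45126435.
Snord32a: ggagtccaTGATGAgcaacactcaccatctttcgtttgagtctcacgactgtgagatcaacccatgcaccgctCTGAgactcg
Snord33: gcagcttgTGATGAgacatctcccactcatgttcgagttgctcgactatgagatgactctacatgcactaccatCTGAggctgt
Snord34: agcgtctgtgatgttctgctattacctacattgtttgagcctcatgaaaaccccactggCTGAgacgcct
Snord35a: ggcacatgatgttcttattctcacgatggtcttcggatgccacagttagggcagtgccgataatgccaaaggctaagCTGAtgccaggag
Lower levels were found for Snord73a, in an intron of Rps3a1 at chr3:86138791-86138858, and Snord89, in an intron of the non-coding Gm15832 at chr1:39548745-39548854, both on the minus strand.
Snord73a: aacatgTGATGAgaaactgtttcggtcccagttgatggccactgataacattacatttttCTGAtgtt
Snord89: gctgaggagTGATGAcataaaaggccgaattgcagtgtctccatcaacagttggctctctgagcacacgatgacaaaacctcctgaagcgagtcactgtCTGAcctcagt

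Among all 72 members, 48 (66.67%) held TGATGA starting within the first 15 bases, 69 (95.83%) held CTGA within the last 18, and 46 (63.89%) held both. In the 39 H/ACA box small nucleolar RNAs of the same data, the other main class, the shares were 0%, 7.692% and 0%. These are matches of letters on the RNA strand only; a member without a match may carry a variant box. The members were 64 to 238 bases long with a median of 78. A host gene on the same strand held 69 of them: 51 lay in protein-coding genes, 22 of these in genes of ribosomal proteins or Rack1, and 18 in non-coding genes. Snord118, Snord13 and Snord104 lay in no host; this last was outside the rule for named members and was named after its values were seen, as were Snord1a, Snord1c, Snord49b and Snord68.

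Library depth was 2.57 to 15.51 M (mega) estimated counts, with 3 libraries under 4 M, and the mean aligned length was 45.03 to 48.4 bases. Transcripts of the labelled tissue were abundant: 6 absorptive epithelium genes summed to 8510 to 39800 CPM (counts scaled to a common library size), while the ileal pair Fabp6 and Slc10a2 stayed at or under 1.53 CPM, the stomach pair at or under 0.0999 CPM, and the colon pair Car1 and Aqp8 at or under 6.13 CPM, with Car1 at 0 in all libraries. Several marker sums moved with dose. The 3 Paneth cell genes summed to 7250 to 11100 CPM in irradiated and 2230 to 3860 CPM in unirradiated supplemented libraries, and to 5790 to 8170 CPM in irradiated and 1730 to 2560 CPM in unirradiated adequate libraries. The 5 red blood cell genes summed to 3.59 to 28 CPM after irradiation and 120 to 393 CPM without it on the supplemented diet, and to 3.28 to 8.66 CPM after irradiation and 365 to 591 CPM without it on the adequate diet. For the 5 B and plasma cell genes the sums were 119 to 166 CPM in irradiated and 178 to 398 CPM in unirradiated supplemented libraries, and 68.5 to 115 CPM in irradiated and 224 to 448 CPM in unirradiated adequate libraries. Sums at low levels also stood apart between doses on 1 diet. On the supplemented diet the 3 pancreas acinar genes summed to 4.11 to 7.92 CPM in irradiated and 1.9 to 3.72 CPM in unirradiated libraries, and the 3 neuron and glia genes to 5.04 to 12.3 CPM in irradiated and 4.08 to 4.89 CPM in unirradiated libraries. On the adequate diet the colon pair summed to 0.717 to 1.42 CPM in irradiated and 2.66 to 6.13 CPM in unirradiated libraries. Of 4 listed brain-enriched imprinted hosts, 2 were in the data, Snhg11 and Meg3. On the adequate diet these summed to 8.3 to 16.9 CPM in irradiated and 18 to 20.8 CPM in unirradiated libraries. In edgeR's quasi-likelihood test Meg3 was lower there (log2 fold change -0.83, adjusted p = 0.0329) and Snhg11 was not called (-0.19, adjusted p = 0.588). The 3 cycling cell genes overlapped between doses on both diets. The part of these shifts in the results below was not tested.

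C/D box RNAs took a larger share of the library after irradiation on both diets. On the supplemented diet they held 5.94, 4.76, 5.41 and 3.36% of all counts in the 4 irradiated libraries, against 1.34, 2.03, 2.21 and 1.37% in the unirradiated libraries. On the adequate diet the shares were 3.38, 3.56, 3.09 and 4.79% with irradiation and 1.400, 1.75, 1.26 and 1.65% without. The groups did not overlap on either diet. The mean was 4.87% ± 1.12 in irradiated and 1.74% ± 0.448 in unirradiated supplemented libraries, and 3.71% ± 0.75 in irradiated and 1.51% ± 0.226 in unirradiated adequate libraries (SD, n = 4 each). The log2 ratio of means was 1.49 on the supplemented and 1.29 on the adequate diet. Of the protein-coding counts alone, the log2 ratio was 1.68 on the supplemented and 1.44 on the adequate diet. A further 1079 genes of the annotation's snoRNA type have no Snord, Snora or Scarna symbol and stood outside the rule; they held 5.93% ± 1.45 of counts in irradiated and 1.95% ± 0.519 in unirradiated supplemented libraries, and 4.39% ± 0.772 in irradiated and 1.69% ± 0.216 in unirradiated adequate libraries.

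**Figure D1:**
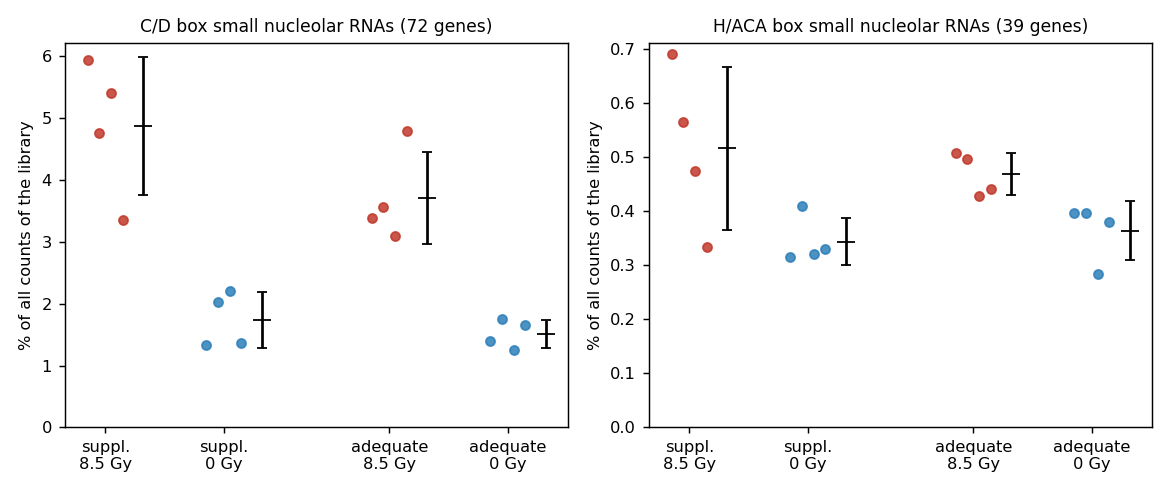
Share of all counts of a library (vertical axes, %) held by the 72 C/D box RNAs (left) and the 39 H/ACA box RNAs (right) in the 4 groups (horizontal axes; suppl., methionine supplemented; adequate, methionine adequate). Points are single libraries, black marks the mean with SD of 4; irradiated C/D shares lie between 3.09 and 5.94%, above all unirradiated shares, which lie between 1.26 and 2.21%.

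A few members made up much of that share. Snord49a, a guide of large-subunit ribosomal RNA, alone held 11.3 to 23.4% of the C/D counts of a library, and the 5 members with the most counts together held 37.9 to 58.8%. TPM are counts scaled by library total and by effective length, which is about the gene length less the mean aligned length. In TPM, Snord49a was highest among members, with 64628 ± 6784 TPM in irradiated and 37017 ± 12763 TPM in unirradiated supplemented libraries. On the adequate diet it had 45962 ± 6092 TPM in irradiated and 34238 ± 10036 TPM in unirradiated libraries (SD, n = 4 each). Snord95 followed with 37787 ± 3975 TPM in irradiated and 23443 ± 7971 TPM in unirradiated supplemented libraries, and 25385 ± 5037 TPM in irradiated and 21992 ± 5136 TPM in unirradiated adequate libraries. At the low end, Snord107, a brain-enriched RNA of the imprinted Prader-Willi region with no known ribosomal target, had 85 counts over all 16 libraries and was the only member too scarce for the tests. Snord64, of the same region, was tested, with 0.582 to 2.05 CPM in irradiated and 0.418 to 1.10 CPM in unirradiated supplemented libraries, and 0.83 to 2.08 CPM in irradiated and 0.285 to 1.15 CPM in unirradiated adequate libraries. It passed on neither diet, with log2 fold changes of 0.52 ± 0.43 on the supplemented diet (adjusted p = 0.453) and 1.32 ± 0.47 on the adequate diet (adjusted p = 0.0716). The 71 members other than Snord107 entered the tests.

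Relative to the bulk of genes, irradiation raised most C/D box RNAs on the supplemented diet, a direction that turns for many of them on TPM that are not centred. With edgeR's quasi-likelihood test, Benjamini-Hochberg adjustment over 16558 genes and an adjusted p under 0.05, 47 of 71 members were higher and 2 were lower. Over all tested genes 8.03% were higher and 7.21% lower. The median log2 fold change of the members was 1.07, against 0.01 over all genes. In 37 members all 4 irradiated libraries lay above all 4 unirradiated ones, and in 1 member below, against 9.43% and 9.23% of all genes.

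On the adequate diet, 48 of 71 members were higher and 1 was lower by the same test, where 7.13% and 6.58% of all genes were. The median member changed by 1.24 on the log2 scale and the median gene by 0.01. The groups did not overlap in 53 members that were higher and 2 that were lower, against 9.34% and 10.1% of all genes. The radiation comparisons of the 2 diets share no library. In both of them, 39 members were higher (4.36% of all genes), none was lower (3.7% of all genes) and none was called in opposite directions. A further 8 members were higher on the supplemented diet alone and 9 on the adequate diet alone, and 12 were called on neither. The fold changes on the 2 diets had a Spearman correlation of 0.69 over the 71 members, which are not independent since members share libraries, reads and hosts.

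**Figure D2:**
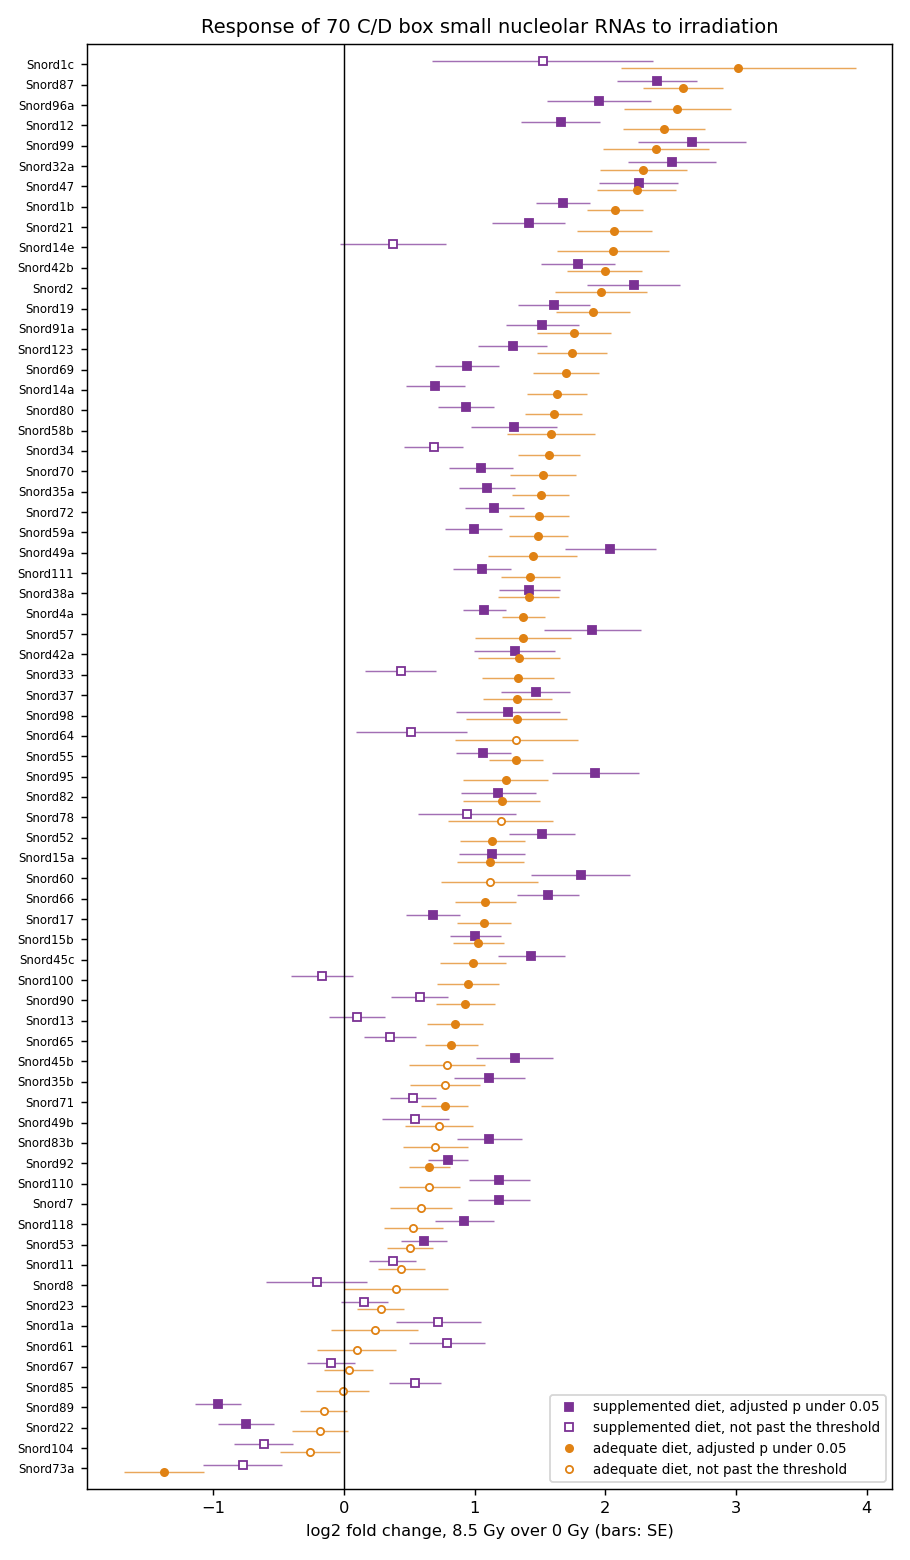
Log2 fold change, 8.5 Gy over 0 Gy (horizontal axis), with SE bars for 70 members (rows, ordered by the value on the adequate diet); squares stand for the supplemented and circles for the adequate diet, and filled symbols for an adjusted p under 0.05. Values of 62 members are positive on both diets, and Snord73a, Snord104, Snord22 and Snord89 stand below 0 on both; Snord68, listed at 0 in 4 libraries of a group, is not drawn.

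By role, guides of large-subunit ribosomal RNA rose in 24 of 30 tested members on the supplemented diet and in 24 of 30 on the adequate diet, with medians of 1.36 and 1.44 and with 1 lower member on the adequate diet. Guides of small-subunit ribosomal RNA rose in 13 of 18 and 15 of 18, with medians of 1.22 and 1.33. Of the 5 members known for ribosomal RNA processing or acetylation, 2 rose and 1 fell on the supplemented diet, and 3 rose on the adequate diet. The 3 guides of U6 RNA gave 1 call, Snord7 on the supplemented diet, named after its values were seen. Among 14 members with no role assigned here, 7 rose and 1 fell on the supplemented diet and 6 rose on the adequate diet. For comparison, 8.03% of all genes were higher and 7.21% lower on the supplemented diet, and 7.13% and 6.58% on the adequate diet. In the sets of 5 and 3 members, a single call cannot be read as a trait of the role.

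Snord87 was among the strongest risers on both diets. It had 1807, 1872, 1894 and 1164 CPM in irradiated supplemented libraries, against 244, 333, 441 and 263 CPM in unirradiated ones. On the adequate diet it had 978, 926, 818 and 1967 CPM with irradiation and 144, 263, 155 and 215 CPM without. Every irradiated library stood above every unirradiated one, by log2 fold changes of 2.39 ± 0.30 (SE; adjusted p = 0.000136) and 2.59 ± 0.31 (adjusted p = 8.37e-05) in edgeR's quasi-likelihood test. Its counts were whole numbers in all 16 libraries, so no sign of reads divided with another gene was seen. The gene ID of the host Snhg6 was not in the data, so the host could not be analysed.

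Snord49a, the most abundant member, had 12771, 10268, 13308 and 7665 CPM in irradiated and 1762, 2835, 4554 and 1567 CPM in unirradiated supplemented libraries. Adequate-diet values were 6007, 7752, 5711 and 7705 CPM in irradiated and 2926, 2967, 1394 and 2688 CPM in unirradiated libraries. There was no overlap on either diet, and the changes were 2.04 ± 0.35 on the supplemented diet (adjusted p = 0.00108) and 1.45 ± 0.34 on the adequate diet (adjusted p = 0.0102) on the log2 scale. Its neighbour Snord49b, also a guide of the large subunit, shares a run of 13 bases with it (aggaagtgccgtc) and is 69.23% identical over the alignment. Snord49b had 116, 86.3, 78.9 and 43.6 CPM in irradiated and 45.5, 58.2, 55.1 and 62.01 CPM in unirradiated supplemented libraries, and 102, 146, 97.9 and 78.7 CPM in irradiated and 75.5, 65.97, 74.1 and 40.4 CPM in unirradiated adequate libraries. Its groups overlapped on the supplemented and not on the adequate diet, and it passed the threshold on neither, with 0.55 ± 0.26 on the supplemented diet (adjusted p = 0.17) and 0.73 ± 0.26 on the adequate diet (adjusted p = 0.0734). The host of both, 2410006H16Rik, changed by 0.74 ± 0.23 on the supplemented diet (adjusted p = 0.0361) and 0.71 ± 0.24 on the adequate diet (adjusted p = 0.0549). The difference between the pair's responses was not tested.

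Another 3 guides of the large subunit were among the most abundant members and rose on both diets. Snord2, in the translation factor gene Eif4a2, had 4337, 2169, 3328 and 1367 CPM in irradiated and 352, 594, 1053 and 409 CPM in unirradiated supplemented libraries, and 2625, 2466, 2055 and 2250.0 CPM in irradiated and 650.3, 588, 484 and 678 CPM in unirradiated adequate libraries. Snord12, in the non-coding Zfas1, had 4212, 3489, 3296 and 5564 CPM in irradiated and 1043, 1688, 1514 and 996 CPM in unirradiated supplemented libraries, and 2805, 5078, 3176 and 6701 CPM in irradiated and 564, 814, 846 and 1027 CPM in unirradiated adequate libraries. For both, the groups stood apart on each diet, with log2 fold changes of 2.22 ± 0.36 on the supplemented diet and 1.97 ± 0.35 on the adequate diet for Snord2, and 1.66 ± 0.30 on the supplemented diet and 2.45 ± 0.31 on the adequate diet for Snord12. Snord95, in Rack1, whose protein sits on the small ribosomal subunit, changed by 1.92 ± 0.33 on the supplemented diet (adjusted p = 0.00121) and 1.24 ± 0.33 on the adequate diet (adjusted p = 0.0182). The call of Snord95 on the adequate diet was lost without replicate 2 or replicate 3 of the unirradiated group or replicate 2 of the irradiated group, with log2 fold changes of 1.21, 1.11 and 1.01. Snord96a, also in Rack1 and named after its values were seen, changed by 1.95 ± 0.40 on the supplemented diet and 2.55 ± 0.41 on the adequate diet. Counts of Snord2, Snord12, Snord95 and Snord96a were not all whole, so they were in part divided with other transcripts.

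Snord99, in the non-coding Snhg12, had the largest log2 fold change of the called members on the supplemented diet. It had 3571, 1819.8, 3012 and 1020.3 CPM in irradiated and 184, 389.8, 675 and 241 CPM in unirradiated supplemented libraries, and 1388, 1285, 1130.4 and 1904 CPM in irradiated and 260.0, 328, 204 and 299 CPM in unirradiated adequate libraries. The changes were 2.66 ± 0.41 on the supplemented diet (adjusted p = 0.000581) and 2.39 ± 0.41 on the adequate diet (adjusted p = 0.00135), with no overlap between groups. Its host Snhg12 also rose, by 1.04 ± 0.22 on the supplemented diet and 0.83 ± 0.23 on the adequate diet. Counts of Snord99 were not all whole and it overlaps an exon of Snhg12, so reads may be divided between them. Among guides of the small subunit, Snord66, in Eif4g1, changed by 1.56 ± 0.24 on the supplemented diet and 1.08 ± 0.23 on the adequate diet, Snord42b, in Rpl23a, by 1.79 ± 0.28 on the supplemented diet and 1.995 ± 0.29 on the adequate diet, and Snord4a, in the same gene, by 1.07 ± 0.16 on the supplemented diet and 1.37 ± 0.17 on the adequate diet, all called on both diets. Snord60 lies within Rab26os, which runs antisense to Rab26. Snord60 rose on the supplemented diet (1.81 ± 0.38, adjusted p = 0.00448) and had 1.12 ± 0.37 (adjusted p = 0.0548) on the adequate diet. Counts of Snord4a and Snord60 were not all whole, while those of Snord66 and Snord42b were.

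**Figure D3:**
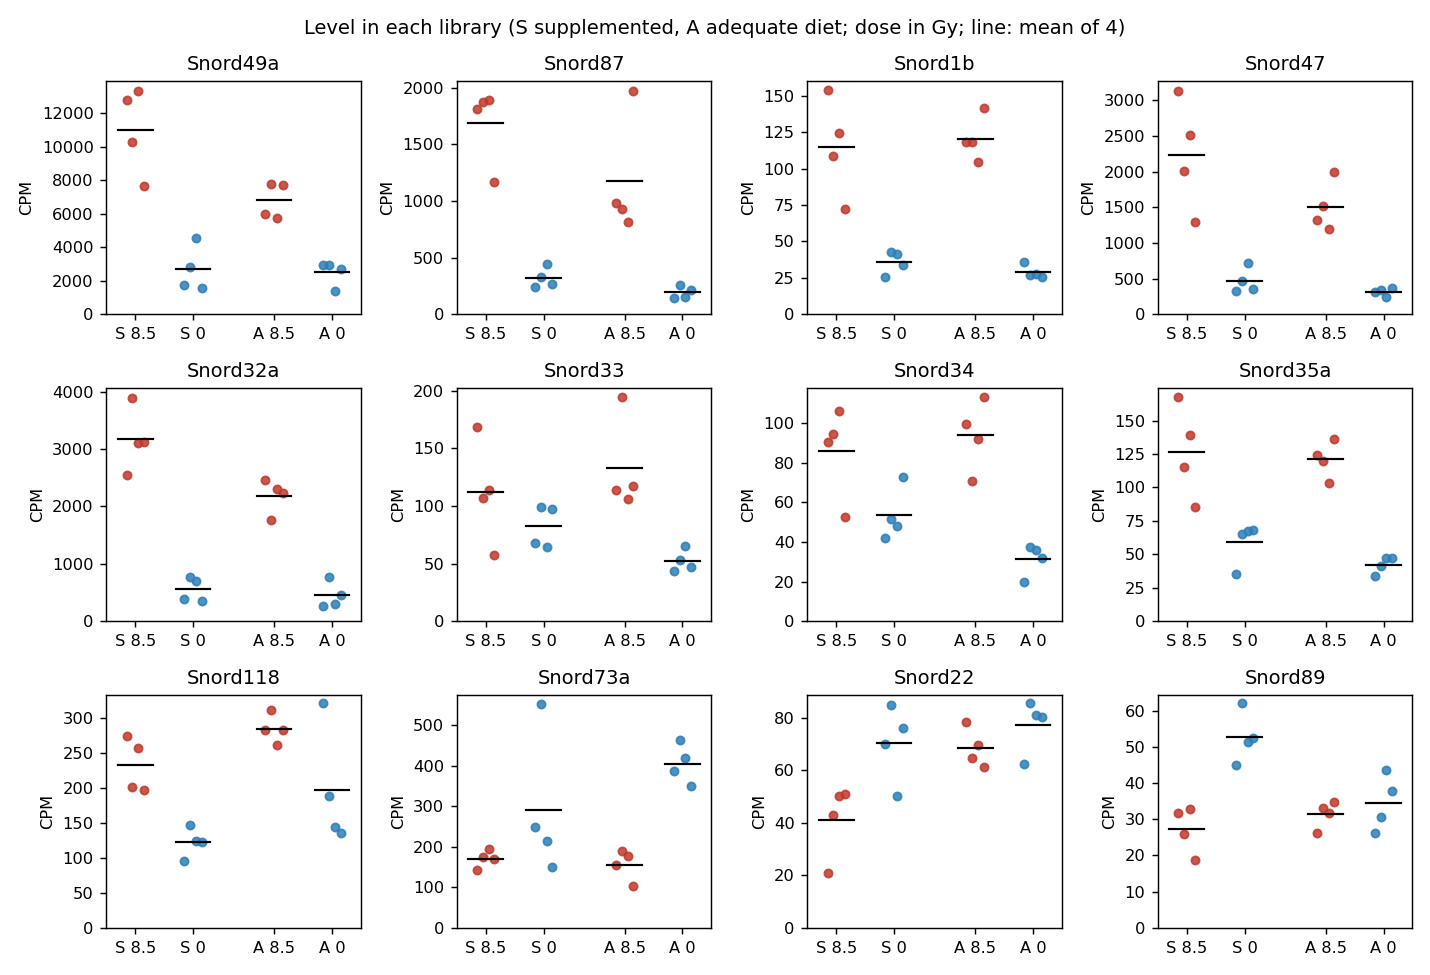
Levels in CPM (vertical axes, from 0) of 12 members in each library, by group (S supplemented, A adequate diet; 8.5 or 0 Gy); points are libraries and lines are means of 4. Snord49a, Snord87, Snord1b, Snord47, Snord32a and Snord35a stand apart between doses on both diets, Snord33 and Snord34 on the adequate diet; Snord73a is lower with irradiation on the adequate diet and Snord89 on the supplemented diet.

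Members cut from the same gene did not all show the same values. In Rpl13a, Snord32a, which guides both ribosomal subunits, had 2544, 3883, 3105 and 3127 CPM in irradiated and 389.9, 772, 705 and 356 CPM in unirradiated supplemented libraries, and 2460.2, 1762, 2299 and 2231 CPM in irradiated and 268, 769, 304 and 447 CPM in unirradiated adequate libraries. Its groups did not overlap, and it changed by 2.51 ± 0.33 on the supplemented diet (adjusted p = 0.000179) and 2.29 ± 0.33 on the adequate diet (adjusted p = 0.000416). Snord33, a guide of the small subunit, had 169, 107, 114 and 57.5 CPM in irradiated and 68.1, 99.03, 64.3 and 97.7 CPM in unirradiated supplemented libraries, and 114, 195, 106 and 117 CPM in irradiated and 43.3, 53.2, 64.8 and 47.3 CPM in unirradiated adequate libraries, with overlap on the supplemented diet and none on the adequate diet. The changes of Snord33 were 0.43 ± 0.27 on the supplemented diet (adjusted p = 0.31) and 1.33 ± 0.28 on the adequate diet (adjusted p = 0.0056). Snord34 changed by 0.69 ± 0.23 on the supplemented diet (adjusted p = 0.052) and 1.57 ± 0.23 on the adequate diet (adjusted p = 0.000572), and Snord35a by 1.097 ± 0.21 on the supplemented diet (adjusted p = 0.00273) and 1.51 ± 0.22 on the adequate diet (adjusted p = 0.000405); both guide the large subunit. Rpl13a itself had 195, 153, 148 and 78.7 CPM in irradiated and 109.9, 117, 106 and 121 CPM in unirradiated supplemented libraries, and 149, 119, 140.1 and 165 CPM in irradiated and 131, 122, 98.7 and 112 CPM in unirradiated adequate libraries, with changes of 0.34 ± 0.20 on the supplemented diet (adjusted p = 0.273) and 0.31 ± 0.20 on the adequate diet (adjusted p = 0.318). The longest run of bases that any 2 of these 4 members share is 9. Counts of Snord32a, Snord33 and Snord34 were not all whole, so they were in part divided with other transcripts, while those of Snord35a were.

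Of the members, 3 lie in Gas5, a non-coding host whose transcript is itself short-lived. Snord47 had 3123, 2008, 2516 and 1292 CPM in irradiated and 329, 465, 723 and 358 CPM in unirradiated supplemented libraries, and 1317, 1516, 1201 and 1986 CPM in irradiated and 319, 346, 238 and 372 CPM in unirradiated adequate libraries. Groups stood apart on both, with changes of 2.25 ± 0.30 on the supplemented diet (adjusted p = 0.000179) and 2.24 ± 0.30 on the adequate diet (adjusted p = 0.000209). Snord80 was also higher on both (0.94 ± 0.21 on the supplemented diet and 1.61 ± 0.22 on the adequate diet), and Snord78, the scarcest at 2.30 to 16.1 CPM over all groups, had 0.94 ± 0.37 on the supplemented diet (adjusted p = 0.101) and 1.199 ± 0.40 on the adequate diet (adjusted p = 0.0584). Gas5 was higher by 0.99 ± 0.19 on the supplemented diet (adjusted p = 0.00213) and 1.48 ± 0.19 on the adequate diet (adjusted p = 0.000133). All 3 guide the large subunit, and their counts were partly shared with other transcripts of the locus.

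The copies of Snord1, guides of the large subunit, also had unlike values. Snord1b had 154, 109, 125 and 72.6 CPM in irradiated and 25.5, 42.98, 41.2 and 33.6 CPM in unirradiated supplemented libraries, and 118, 118, 105 and 142 CPM in irradiated and 36.04, 26.7, 27.7 and 25.6 CPM in unirradiated adequate libraries. Its groups stood apart, with changes of 1.68 ± 0.21 on the supplemented diet (adjusted p = 9.96e-05) and 2.07 ± 0.21 on the adequate diet (adjusted p = 1.69e-05). Snord1a, 62.96% identical to it, had 19.4, 10.7, 14.7 and 10.8 CPM in irradiated and 4.39, 13.4, 7.39 and 7.63 CPM in unirradiated supplemented libraries, and 14.99, 12.9, 9.83 and 10.9 CPM in irradiated and 19.6, 7.86, 8.66 and 8.08 CPM in unirradiated adequate libraries. Its groups overlapped on both diets and it passed on neither, with 0.72 ± 0.32 on the supplemented diet (adjusted p = 0.145) and 0.24 ± 0.33 on the adequate diet (adjusted p = 0.689). Snord1c is 97.37% identical to Snord1b, so the division of reads between them is uncertain: it had 55.5, 33.2, 0 and 22.6 CPM in irradiated supplemented libraries, where the 0 stands for 0.08 estimated counts before rounding. Snord1c was called on the adequate diet (3.02 ± 0.90, adjusted p = 0.0415) and not on the supplemented diet (1.52 ± 0.84, adjusted p = 0.255). Their host 1810032O08Rik had 2.39 to 5.91 CPM over all libraries and changes of -0.23 ± 0.23 on the supplemented diet and 0.06 ± 0.23 on the adequate diet, neither called.

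Members that act in ribosomal RNA cleavage or acetylation had mixed values. Snord118, known as U8 and needed for processing of the large-subunit RNAs, had 274, 201, 257 and 196 CPM in irradiated and 95.8, 147, 125 and 123 CPM in unirradiated supplemented libraries, and 283, 311, 261 and 282 CPM in irradiated and 322, 188, 145 and 135 CPM in unirradiated adequate libraries, where the groups overlapped. It changed by 0.92 ± 0.23 on the supplemented diet (adjusted p = 0.0122) and 0.53 ± 0.23 on the adequate diet (adjusted p = 0.128). Snord13, known as U13, which guides acetylation of small-subunit RNA, changed by 0.100 ± 0.21 on the supplemented diet (adjusted p = 0.796) and 0.85 ± 0.21 on the adequate diet (adjusted p = 0.0152). Without the 3 libraries under 4 M counts the call of Snord13 on the adequate diet was lost, at 0.74. U14, needed for small-subunit processing, was measured as Snord14a in Rps13 and Snord14e in Hspa8, a chaperone gene. Snord14a rose on the adequate diet (1.63 ± 0.23, adjusted p = 0.000367); on the supplemented diet its groups overlapped and the call (0.701 ± 0.22, adjusted p = 0.0429) was lost in 10 of the 16 fits that left out a single library, with log2 fold changes of 0.60 to 0.74. Snord14e rose on the adequate diet (2.06 ± 0.43, adjusted p = 0.00659), where unirradiated replicate 1 had 3.83 CPM and the others 32.6 to 48.9 CPM, and had 0.38 ± 0.41 (adjusted p = 0.585) on the supplemented diet.

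Few members were lower after irradiation. Snord73a, a guide of the large subunit, had 142, 174, 195 and 170.0 CPM in irradiated and 249, 553, 213 and 149 CPM in unirradiated supplemented libraries, which overlapped. On the adequate diet it had 155, 189, 178 and 103 CPM in irradiated and 387, 465, 419 and 349 CPM in unirradiated libraries, with no overlap. The changes were -0.77 ± 0.30 on the supplemented diet (adjusted p = 0.0965) and -1.38 ± 0.31 on the adequate diet (adjusted p = 0.00764), so it fell on the adequate diet alone by this threshold. Its host Rps3a1 had 0.55 ± 0.38 on the supplemented diet and 0.76 ± 0.39 on the adequate diet, neither called. Snord89 had 31.7, 25.9, 32.9 and 18.6 CPM in irradiated and 45.1, 62.2, 51.4 and 52.5 CPM in unirradiated supplemented libraries, and 26.1, 33.2, 31.8 and 34.8 CPM in irradiated and 26.1, 30.7, 43.5 and 37.7 CPM in unirradiated adequate libraries. It fell on the supplemented diet, with no overlap (-0.96 ± 0.18, adjusted p = 0.00194), and had -0.15 ± 0.18 (adjusted p = 0.626) on the adequate diet. Snord22, known as U22 and needed for small-subunit processing, had 20.8, 42.97, 50.1 and 51.1 CPM in irradiated and 69.96, 84.9, 50.1 and 76.1 CPM in unirradiated supplemented libraries. The groups overlapped, since irradiated replicate 4 (51.1 CPM) lay above unirradiated replicate 3 (50.1 CPM). Snord22 changed by -0.75 ± 0.21 (adjusted p = 0.0268). That call was lost without replicate 1, 2 or 4 of the unirradiated or replicate 2 of the irradiated supplemented group, at -0.76 to -0.65. The difference of the responses between diets did not pass for any of the 3.

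Snord68, in Rpl13, was listed at 0 in all 4 irradiated supplemented libraries and at 10.98, 5.76, 0 and 17.6 CPM in the unirradiated ones, and had 12.2, 7.05, 0 and 0 CPM in irradiated and 40.3, 30.9, 47.8 and 18.9 CPM in unirradiated adequate libraries. It passed on neither diet (edgeR adjusted p = 0.0577 on the supplemented and 0.147 on the adequate diet) and no fold is given, since its reads are divided with Rpl13 transcripts: the host had 3626 CPM in irradiated and 1578 CPM in unirradiated supplemented libraries on average.

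Most members had a larger fold change than the host gene that carries them. Of 46 tested hosts, 15 were higher and 1 was lower on the supplemented diet and 10 were higher and 1 was lower on the adequate diet, with a median log2 fold change of 0.36 on each. Among all tested genes, 8.03% were higher and 7.21% lower on the supplemented diet, and 7.13% were higher and 6.58% lower on the adequate diet. The hosts thus had a larger share of higher calls than all genes on both diets. In 65 pairs of member and host, the member's fold change was the larger in 52 on the supplemented diet and 56 on the adequate diet, with median differences of 0.61 and 0.73 (log2). Snord87, Snord22 and Snord123 form no pair, since their hosts Snhg6, Snhg1 and Snhg18 were not in the data. Of 44 higher members with a tested host on the supplemented diet, 18 had a host that was also called higher, 26 had a host that was not called, and the host's fold change was negative for 5. Of the 45 such members on the adequate diet, 13 had a host called higher, 32 had a host not called, and 4 a negative one. The Spearman correlation of member with host fold changes was 0.29 on the supplemented and 0.25 on the adequate diet, over pairs that share libraries and, for some, hosts and reads. Members in genes of ribosomal proteins or Rack1 rose in 17 of 22 on the supplemented and 18 of 22 on the adequate diet. Those in other protein-coding genes rose in 18 of 28 on each diet, and those in non-coding hosts in 11 of 18 on each. Counts of ribosomal protein genes are uncertain because such genes have many near-identical copies.

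**Figure D4:**
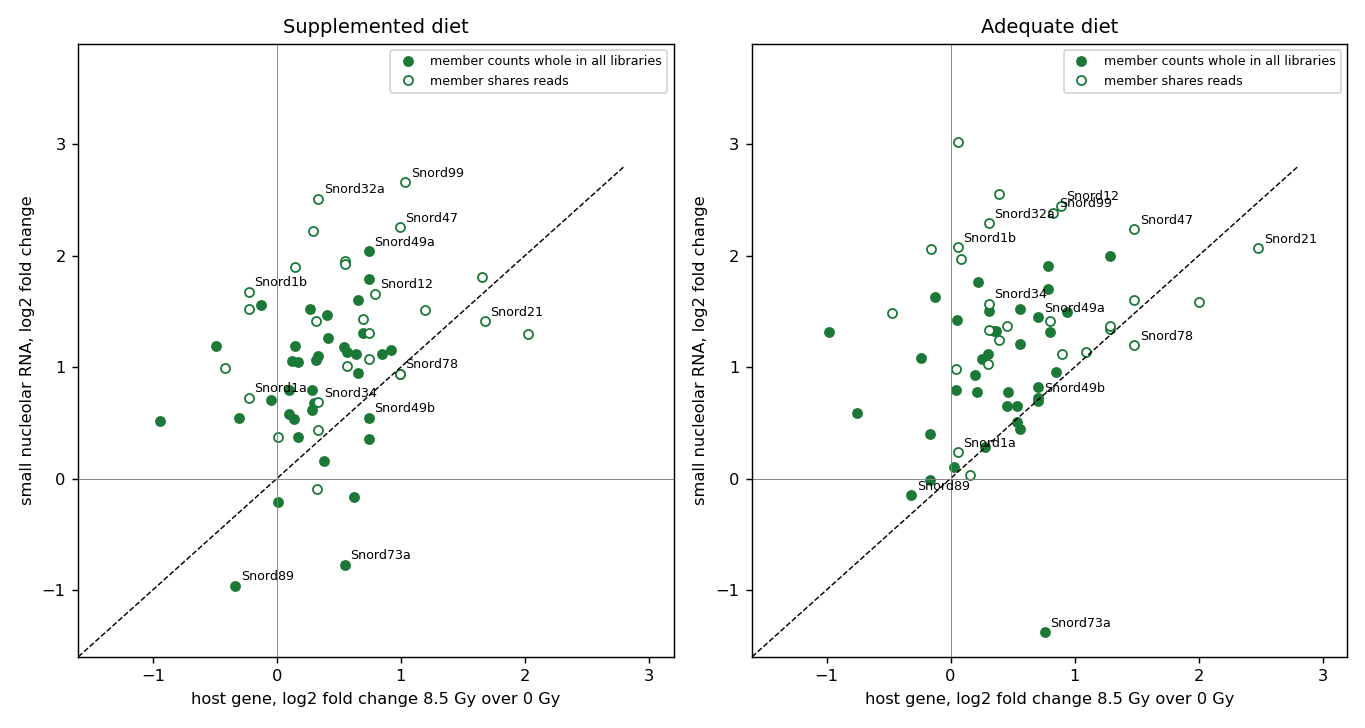
Log2 fold change (8.5 Gy over 0 Gy) of a member (vertical axis) against that of its host gene (horizontal axis) for 64 pairs (without Snord68, at 0 in a whole group), on the supplemented diet (left) and the adequate diet (right). Filled points are members whose counts were whole in all libraries, open points members that share reads, and the dashed line marks equal change; most points lie above it.

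Most members with divided counts rose, and so did most members whose counts were whole in all libraries. Of 42 tested members with whole counts in all libraries, 27 were higher and 1 lower on the supplemented diet (median 0.996) and 25 were higher and 1 lower on the adequate diet (median 0.94). Of 29 members with divided counts, 20 were higher and 1 lower, and 23 were higher and none lower, with a median of 1.41 on each diet. By length, 20 of 31 members of up to 75 bases, 19 of 25 of 76 to 90 bases and 8 of 15 longer ones were higher on the supplemented diet, and 21, 20 and 7 were on the adequate diet. Over the 71 members, the Spearman correlation of the fold change was -0.29 and -0.14 with length, -0.25 and -0.28 with GC content, and 0.57 and 0.36 with mean level, on the supplemented and the adequate diet in that order. Mean aligned length was 46.6 to 48.4 bases in irradiated and 47.6 to 48.0 bases in unirradiated supplemented libraries and 45.7 to 48.0 bases in irradiated and 45.03 to 47.5 bases in unirradiated adequate libraries; its part in the counts of these short genes was not tested.

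The direction depends on what the level is set against. TPM divides by effective length, about the gene length less the mean aligned length, and adds up to the same total in every library. All snoRNA genes together held 63.1% ± 3.39 of that total in irradiated and 43.5% ± 5.77 in unirradiated supplemented libraries. On the adequate diet they held 53.6% ± 5.63 in irradiated and 38.1% ± 4.77 in unirradiated libraries (SD, n = 4 each). Protein-coding genes held 6.98% ± 1.81 in irradiated and 14.96% ± 2.48 in unirradiated supplemented libraries, and 7.62% ± 0.609 in irradiated and 14.7% ± 0.737 in unirradiated adequate libraries. On log2(TPM + 0.05), the median tested gene changed by -1.19 on the supplemented and -1.03 on the adequate diet and the median member by -0.22 on the supplemented and 0.21 on the adequate diet. On that scale 21 of 71 members were above 0 on the supplemented and 42 on the adequate diet, and limma called 8 higher and 20 lower on the supplemented and 20 higher and 13 lower on the adequate diet. The share of all genes called on that scale is not given here. With the median gene below 0, the lower calls are therefore not shown to be particular to the members. Relative to the median gene, members were higher by 0.97 on the supplemented and 1.24 on the adequate diet, where scaled counts gave 1.07 and 1.24. All fold changes here are therefore relative to the bulk of genes and give no absolute amount per cell.

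No C/D box RNA passed edgeR's test between the supplemented and the adequate diet. Without irradiation, none of 71 members was called higher or lower on the supplemented against the adequate diet (0.169% and 0.0302% of all genes were). An unadjusted p under 0.05 was found for 15 of the members and for 1977 of all 16558 genes. DESeq2 called 2 members higher and limma voom none. No share of all genes called by DESeq2 is given here to set beside the 2. The median log2 fold change was 0.25, with 45 members above 0, and the groups did not overlap in 5 higher and 2 lower members (4.71% and 4.43% of all genes). Snord14e had the largest value, 1.54 ± 0.42 (edgeR adjusted p = 0.163), in a comparison that includes the adequate library with 3.83 CPM. In irradiated mice, none was called (0% of all genes in either direction), and the median was -0.004. An unadjusted p under 0.05 was found for 6 members and for 871 of all 16558 genes. Groups stood apart in 1 higher and 3 lower members (1.44% and 1.7% of all genes). After irradiation Snord22 had 20.8, 42.97, 50.1 and 51.1 CPM on the supplemented and 78.3, 64.7, 69.7 and 61.4 CPM on the adequate diet, without overlap, at a log2 fold change of -0.71 ± 0.22 (adjusted p = 0.861).

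The response to irradiation was not shown to differ between diets for any member. The interaction, the response on the supplemented minus that on the adequate diet, called 0 of 71 members (0% of all genes), with a median of -0.20. An unadjusted p under 0.05 was found for 9 members and for 738 of all 16558 genes. DESeq2 and limma voom called none either. Snord100, in Rps12, a guide of the small subunit named after its values were seen, had the smallest p, with -1.12 ± 0.33 and an adjusted p of 0.807 in edgeR; it rose on the adequate diet (0.95 ± 0.24, adjusted p = 0.0143) and had -0.17 ± 0.23 (adjusted p = 0.682) on the supplemented diet. Snord14e had -1.68 ± 0.59 and Snord89 -0.81 ± 0.25, with adjusted p of 1 and 0.872.

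Genes for the core C/D proteins and for proteins that build and trim small nucleolar RNA particles were also read at the RNA level. Of 24 tested genes on a list of 25, Taf9 rose on the supplemented diet and Xrn2, Ruvbl1 and Taf9 on the adequate diet, none fell, and the medians were 0.18 on the supplemented and 0.32 on the adequate diet. Over all genes 8.03% were higher on the supplemented and 7.13% on the adequate diet, so these counts lie near the background. Ruvbl1 is a helicase of the R2TP assembly complex, and Xrn2 an exonuclease that trims RNA ends. The core proteins were not called: Fbl had 0.02 ± 0.25 and 0.28 ± 0.26, Nop56 0.14 ± 0.24 and 0.46 ± 0.25, Nop58 0.17 ± 0.23 and 0.56 ± 0.24, and Snu13 -0.36 ± 0.16 and 0.11 ± 0.17, on the supplemented and the adequate diet in that order (log2, SE). Beside the C/D box RNAs, 11 of 37 tested H/ACA box RNAs, which guide pseudouridine formation, were higher and 1 lower on the supplemented diet, and 12 higher and 2 lower on the adequate diet, with medians of 0.44 and 0.50. Of 9 small Cajal body RNAs, guides for spliceosomal RNAs, 4 and 5 were higher and none lower, with medians of 0.68 and 0.73. No test of the difference between these classes was made.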

How the data were processed

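RNA of 16 jejunum samples was depleted of ribosomal RNA, fragmented and made into libraries with a small RNA kit, per the labels' protocols. The submitters' processing notes name Bowtie2 2.2.9, RSEM 1.3.0, edgeR 3.2.4 and the build NCBIM37. The deposited files give RSEM expected counts, TPM and gene lengths, per the file headers. RSEM divides reads that fit several transcripts, so counts that were not whole (beyond 0.005) mark members that share reads. Whether counting used strand is not given in the sources used here, so reads of overlapping and antisense genes cannot be told apart.

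Symbols came from GENCODE M21, which matched 32897 of 37620 gene IDs, and so did gene types, hosts, positions (GRCm38) and transcript sequences, matched by gene ID. Counts were rounded, filtered with filterByExpr (minimum count 10) in edgeR 4.0.16 (R 4.3.3), scaled by TMM and tested with a quasi-likelihood model of 4 group means over 16558 genes, two-sided, with Benjamini-Hochberg adjustment within each comparison. CPM rest on TMM-scaled totals. The test recovered known fold changes in simulated counts. Depth was 2.57 to 15.51 M counts per library, so scarce members are measured with less precision. Alternatives were other scalings (RLE, TMM on protein-coding genes), DESeq2 1.42.0, limma voom (3.58.1), other filters and thresholds, unrounded counts, the compared groups alone and each library left out. Deposited TPM, as log2(TPM + 0.05) with limma, was added after seeing the data.

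The members, gene lists, roles and rule for named members were chosen with earlier results of these data known. The rule took the 10 members with the highest CPM, the 8 called risers with the smallest p and all fallers of each radiation comparison, members known for ribosomal RNA processing, and members in Gas5, Rpl13a, Snhg1, imprinted regions and a further host gene whose results are not reported here.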

Additional observations from a re-analysis of the deposited data

Results flagged for a closer look

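A single library stood apart in 8 of 124 groups of 4 libraries looked at. Each group held the values of a named member, or the C/D share of counts, for 1 combination of diet and dose. All 8 were groups of a named member. Standing apart means that the gap to the nearest other library was over 0.829 of the group's range. By chance about 1 in 20 such groups is set apart in this way. On the supplemented diet after irradiation, replicate 4 was the lowest library for Snord13 (157.6 CPM), Snord4a (53.4 CPM) and Snord87 (1164 CPM), and replicate 2 was the highest for Snord60 (2947 CPM). Replicate 4 of that group also had the lowest C/D share of counts, 3.36%. In the unirradiated supplemented group, replicate 1 was lowest for Snord35a (35.3 CPM). On the adequate diet after irradiation, replicate 2 was the highest for Snord33 (195 CPM) and replicate 4 the highest for Snord87 (1967 CPM). In the unirradiated adequate group, replicate 1, the library with the fewest counts (2.57 M), was highest for Snord78 (3.83 CPM).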

How the results depend on the processing

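No paired analysis was possible because the labels give no replicate numbers that groups share. Leaving out each library in turn, the members called higher numbered 41 to 54 on the supplemented and 44 to 52 on the adequate diet, and the median log2 fold change was 0.96 to 1.22 on the supplemented and 1.17 to 1.32 on the adequate diet. Without the 3 libraries under 4 M counts, 45 were higher on each diet. Members called lower on the supplemented diet, 2 in the report, were 4 with DESeq2 and 1 with the compared groups alone, with an adjusted p under 0.01 or with centred TPM, and 1 to 3 with a library left out (1 without replicate 1 or 2 of the unirradiated or replicate 2 of the irradiated group). DESeq2 called 2 members higher for diet without irradiation, against 0. On TPM without centring, the median member had -0.22 on the supplemented and 0.21 on the adequate diet, and the median of the interaction was -0.48. The median gene had -1.19 on the supplemented and -1.03 on the adequate diet. On this uncentred scale 8 members were called higher and 20 lower on the supplemented diet, and 20 higher and 13 lower on the adequate diet, with no share of all genes beside them. There the sign turned, among named members called on either scale, for Snord118 (-0.36), Snord13 (-1.21), Snord14a (-0.60), Snord33 (-0.91), Snord35a (-0.17), Snord4a (-0.21), Snord80 (-0.33) and Snord83b (-0.11) on the supplemented diet and Snord13 (-0.14) on the adequate diet, and 15 calls of named members were lost. Centring on the median gene, 44 were higher on the supplemented and 48 on the adequate diet. Apart from TPM without centring, no call of a named member reversed. In the other 28 settings, calls that ended were those of Snord14a (13 settings), Snord22 (7) and Snord118 (1) on the supplemented diet and of Snord95 (5), Snord13 (2) and Snord49a (1) on the adequate diet. Calls were gained for Snord34 (7), Snord73a (1) and Snord78 (1) on the supplemented diet and for Snord60 (7), Snord78 (7), Snord83b (3) and Snord118 (2) on the adequate diet; the cause was not tested. Depth limits scarce members such as Snord64 and Snord78. No member had counts identical to another gene, so counting copies once changed nothing.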
